A study of Mus musculus with 69 samples.

Results

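Claudins are the membrane proteins whose extracellular loops pair between neighbouring cells to form the strands of the tight junction. Barrier-forming claudins close the space between cells, pore-forming claudins leave it open to chosen ions, and the mix a tissue makes sets how leaky its junctions are. In skin, tight junctions of the granular layer act together with the cornified layer as the barrier to water loss. The members followed here through the response of mouse dorsal skin to TPA, a tumour promoter of the phorbol ester class that acts through protein kinase C, were Cldn1, Cldn3, Cldn4, Cldn5, Cldn7, Cldn8, Cldn10, Cldn12 and Cldn23. They were matched by gene symbol among probe sets that carry a single symbol, and they are 9 of the 28 claudin genes, and of the 18820 genes in all, that the array measures in that way. Each is read by 1 probe set except Cldn10, which has 2, of which the one with the higher mean was used.

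Total RNA of mouse dorsal skin was hybridised to 69 Affymetrix arrays, of which 66 could be placed in a group of known strain and time. The growth protocol says that the mice were aged to 8 weeks, and the labels give no age for each time. The groups are inbred FVB/N mice (FVB, 27 arrays), Spret/Ei mice (SPR, 14 arrays) and the FVB/N x Spret/Ei cross (F1, 25 arrays), untreated at 0 h or at a given time after TPA was put on skin shaved beforehand. FVB has 3 arrays at each of 0, 2, 6, 12, 24, 48, 72, 168 and 1008 h. F1 has 4 arrays at 0 h, 2 each at 4, 6, 12, 24 and 72 h, 3 at 48 h, 6 at 1008 h and 1 each at 2 and 168 h, and SPR has 2 arrays at each of 0, 4, 12, 24, 48 and 1008 h and 1 each at 2 and 6 h. The controls at 0 h are labelled untreated, although the treatment protocol also names a vehicle. Untreated skin has no group at a later time, so time after TPA and age of the mice cannot be told apart, above all at 1008 h. The protocol speaks of a single dose, while the design text of the series mentions replicate exposure, and 12 and 1008 h are not among the protocol's times. Nothing in the labels says which arrays come from separate mice, so p-values measure the spread between arrays. In these whole-skin samples fewer cells of a type and less RNA per cell cannot be told apart.

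Values are log2 expression after RMA, and a change is the log2 difference of a time from 0 h of the same strain, fitted with limma over all 66 arrays and given with its standard error (SE). A gene is called when its p-value, adjusted by the Benjamini-Hochberg method over all 18820 genes, is under 0.05 and its change is at least 1 on the log2 scale. Groups that do not overlap the 0 h arrays are common here. In FVB this held for 24.2% (72 h) to 44.6% (1008 h) of all genes. In F1 it held for 5.67% (1008 h) to 51.5% (6 h), and in SPR for 36.1% (12 h) to 56.3% (4 h). Every FVB array is labelled batch 1, while F1 and SPR span batches 2 and 3, so between FVB and the other strains only changes from 0 h are compared, and there strain and batch cannot be told apart. For F1 and SPR the fit holds a term for batch 3, so a change can differ slightly from the difference of the group means. SPR 12 h replicate 1 and F1 72 h replicate 2 have a narrow range of values, with interquartile ranges of 1.385 and 2.385 log2 units against at least 3.397 on each of the other arrays. FVB 0 h replicates 2 and 3 carry liver transcripts, since the mean of 14 liver genes, each relative to its own mean over the arrays, is 2.154 and 2.627 there and −0.6 in replicate 1. Treated arrays carry them too: the mean is 1.72 on FVB 6 h replicate 2, 3.04 on 12 h replicate 1, 2.118 on 24 h replicate 1, 1.155 to 1.409 on the 3 FVB arrays at 1008 h, and 3.099 and 1.157 on the F1 arrays at 24 h. The mean of 8 pancreas genes is 3.735 on FVB 6 h replicate 3. Controls carry these transcripts too, with a highest mean of 1.92 among the FVB and 1.73 among the SPR arrays at 0 h. It reaches 1.8 in SPR at 12 h, and 1.29 and 1.36 in FVB at 48 and 72 h. The member calls against 0 h in FVB at 6, 12 and 24 h held with any 1 array of those times left out. Calls stated below for FVB that were lost without the narrow-range arrays or without the 2 controls are given with that loss. Without the 2 controls, FVB 0 h replicate 1 is the only FVB control, so those changes rest on that array. Liver transcripts and the choice of control array cannot be told apart there.

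In FVB skin, 12 of the 72 member-by-time comparisons with 0 h were called, against 6.4% of comparisons over all genes and times, and 29 had an unadjusted p under 0.05. Cldn4 rose at 3 times. Cldn8 fell at 6 times and Cldn23 at 3 times, and the other 6 members had no call at any time. Over the whole FVB course, limma's F test called 6 of the 9 members (Cldn1, Cldn4, Cldn8, Cldn10, Cldn12 and Cldn23), while 50.9% of all genes were called by it, so a call over the whole course was common on this array. Without the 2 arrays of narrow range Cldn5 was called as well (adjusted p = 0.0176, against 0.0703 with them).

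**Figure D1:**
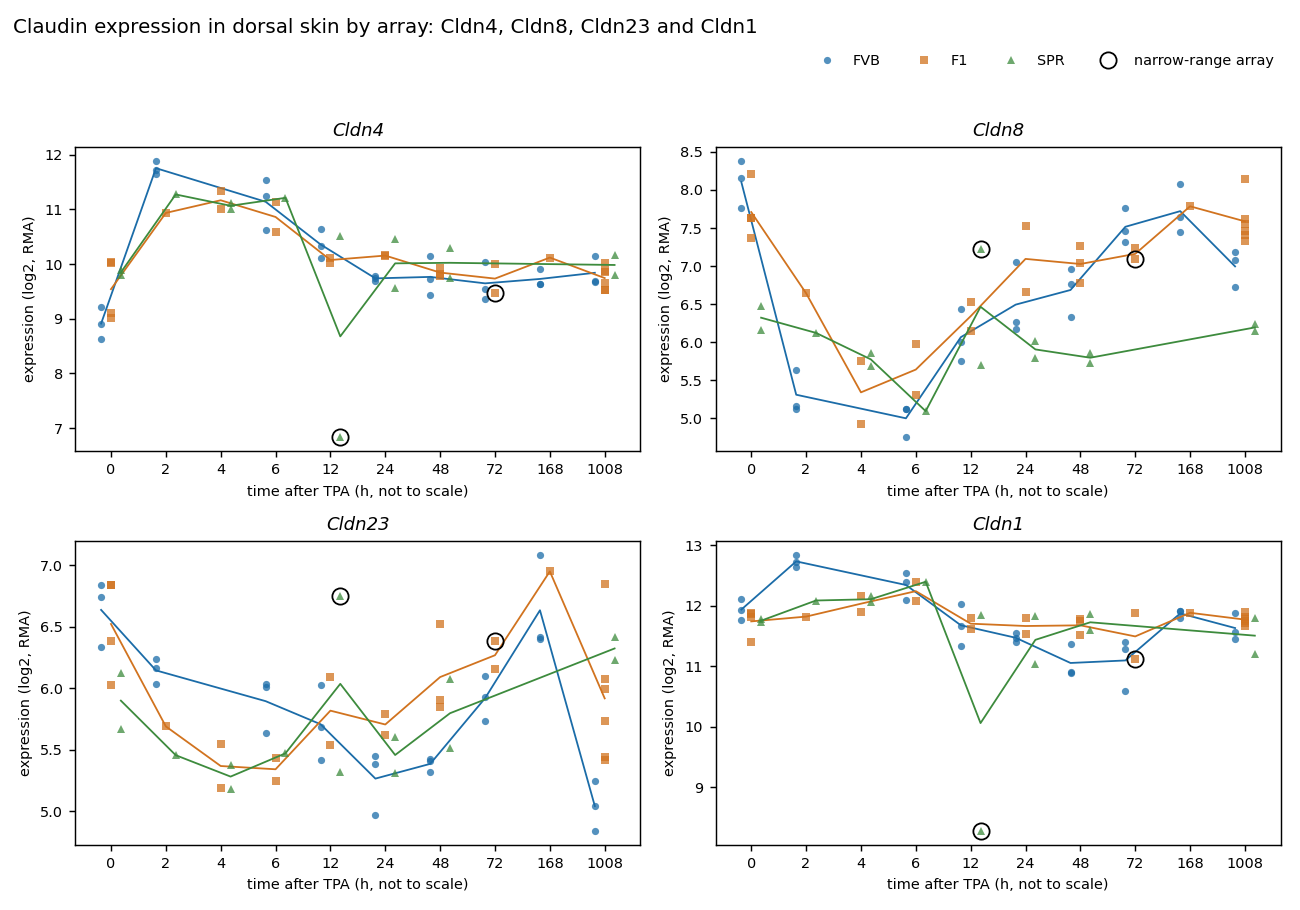
Log2 expression (RMA) of Cldn4, Cldn8, Cldn23 and Cldn1 on each array, by hours after TPA (axis not to scale). Points are arrays of FVB, F1 and SPR, lines join group means and circles mark the 2 arrays of narrow range. In FVB, Cldn4 is highest at 2 h (11.65 to 11.88) and Cldn8 lowest at 6 h (4.76 to 5.12).

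Cldn4 encodes a barrier-forming claudin of the upper living layers of the epidermis. It lies beside Cldn3, another barrier-forming claudin, on chromosome 5, and the neighbours are shown together because Cldn4 rose after TPA and Cldn3 had no call. The windows run from 250 bases before to 50 bases after the start site in RefSeq (GRCm38.p6), at chr5:134946885-134947184 on the minus strand for Cldn4 and chr5:134985964-134986263 on the plus strand for Cldn3. Capitals mark the letters TGANTCA, the core that AP-1 (Fos and Jun proteins, whose activity phorbol esters raise) is known to bind, searched on both strands and overlapping none of the other motifs searched.
Cldn4: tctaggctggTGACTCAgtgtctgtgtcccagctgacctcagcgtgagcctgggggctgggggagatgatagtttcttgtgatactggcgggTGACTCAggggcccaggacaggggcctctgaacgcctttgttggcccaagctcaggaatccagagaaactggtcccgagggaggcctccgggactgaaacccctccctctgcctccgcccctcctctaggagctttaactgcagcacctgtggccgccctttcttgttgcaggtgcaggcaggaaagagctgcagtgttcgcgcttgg
Cldn3: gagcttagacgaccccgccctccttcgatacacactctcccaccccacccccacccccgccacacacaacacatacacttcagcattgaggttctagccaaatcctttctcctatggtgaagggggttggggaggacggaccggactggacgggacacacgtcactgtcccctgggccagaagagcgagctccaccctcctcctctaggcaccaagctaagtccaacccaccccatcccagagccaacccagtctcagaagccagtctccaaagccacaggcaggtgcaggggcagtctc
The Cldn4 window holds the match TGACTCA at 2 places, which start 240 and 158 bases before the start site, 82 bases apart, and the Cldn3 window holds none. Of 32851 promoter windows of the same length, 7.81% hold at least 1 such match and 0.46% hold 2 or more. The table had windows for 7 of the 9 members, 11 in all, and in no window of Cldn1, Cldn5, Cldn7, Cldn10 or Cldn12 were these letters present. Another 4 motifs were searched on both strands. CACCTG, an E-box bound by Snail proteins, was in 20.2% of all windows; among the members it matched at 2 places in the Cldn4 window, at 2 in the second Cldn7 window and at 1 in the Cldn3 window. AACCNGTT, a grainyhead motif, was in 2.09% of all windows and among the members in the Cldn5 window. GGGCGG, the GC box, was in 35.7% of all windows and in at least 1 window of each of the 7 members with a window. TATAAA was in 13.6% of all windows and in none of the 11 member windows. A match describes letters in the window, not a bound site. Cldn8 and Cldn23 had no window.

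At 0 h the FVB arrays gave Cldn4 values of 9.22, 8.90 and 8.62. At 2 h they gave 11.65, 11.88 and 11.73, and at 6 h 11.54, 11.26 and 10.63. At 12 h they gave 10.12, 10.64 and 10.32. All arrays of these 3 times lay above all 3 controls, with the highest level at the earliest time sampled. At 2, 6 and 12 h, 40.1%, 42.7% and 42% of all genes had no overlap with the controls. Cldn4 rose by 2.84 ± 0.40 (SE, n = 3 against 3; 7.18-fold, limma adjusted p = 9.75e-07) at 2 h, where 6.68% of all genes were called. The rise was 2.23 ± 0.40 (4.69-fold, adjusted p = 3.64e-05) at 6 h, where 12.3% of genes were called, and 1.45 ± 0.40 (2.73-fold, adjusted p = 0.00619) at 12 h, where 10.4% were. Without the 2 controls that carry liver transcripts the changes were 2.54, 1.92 and 1.14, and the call at 12 h was lost (adjusted p = 0.216).

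From 24 h on, Cldn4 in FVB stayed above the controls in every array without being called. At these times 24.2% to 44.6% of all genes had no overlap with the controls. The 15 Cldn4 values from 24 to 1008 h lay between 9.36 and 10.15, against a highest control of 9.22. In order of time the changes were 0.83, 0.85, 0.74, 0.82 and 0.93, with adjusted p between 0.101 and 0.33. Leaving out the 2 arrays of narrow range, which belong to other strains but enter the shared estimate of spread, lowered the SE from 0.40 to 0.23. The adjusted p of these 5 changes then lay between 0.00197 and 0.0285, and the changes remained under 1.

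In F1 skin the Cldn4 controls differed by batch. At 0 h the F1 arrays gave 10.02 and 10.03 in batch 2 and 9.01 and 9.10 in batch 3. At 4 h they gave 11.01 in batch 2 and 11.33 in batch 3, and at 6 h 10.58 and 11.14. Each treated array lay above all 4 controls, and 50.5% and 51.5% of all genes had no overlap at 4 and 6 h. The change was 1.63 ± 0.42 (n = 2 against 4, limma adjusted p = 0.00384) at 4 h, where 10.5% of all genes were called, and 1.32 ± 0.42 (adjusted p = 0.0216) at 6 h, where 10.4% were. Within batch 2 the changes were 0.98 (adjusted p = 0.655) and 0.56 (adjusted p = 1), and within batch 3 they were 2.27 and 2.09, so the 2 batches gave the same direction and different sizes. The call at 4 h was lost without F1 4 h replicate 2 (1.30, adjusted p = 0.184). The call at 6 h was lost without F1 6 h replicate 2 (0.86, adjusted p = 0.558), F1 0 h replicate 2 (1.18, adjusted p = 0.0662) or F1 0 h replicate 4 (1.21, adjusted p = 0.06).

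In SPR skin the 2 Cldn4 controls were 9.89 and 9.80 and the 2 arrays at 4 h were 11.12 and 11.02. The single SPR arrays at 2 h and 6 h gave 11.28 and 11.21, and the single F1 array at 2 h gave 10.94. All 4 SPR arrays at these early times lay above both controls. At 4 h 56.3% of all genes had no overlap with the SPR controls, and groups of 1 array have no test. The SPR change at 4 h was 1.22 ± 0.49 (n = 2 against 2) and was not called (adjusted p = 0.136), at a time when 5.27% of genes were. Without the 2 arrays of narrow range the same change had an SE of 0.29 and an adjusted p of 0.00229, which would be a call. At 12 h the narrow-range SPR array gave 6.84 and the other gave 10.52.

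Cldn8, a barrier-forming claudin best known from the distal kidney tubule, where it limits the passage of cations, went the other way. The FVB controls were 8.38, 8.16 and 7.77. The arrays at 2 h were 5.64, 5.13 and 5.17, and those at 6 h were 5.12, 5.12 and 4.76. At 12 h they were 5.75, 6.44 and 6.00. No treated array of these times came within 1 log2 unit of the lowest control. Cldn8 fell by 2.79 ± 0.29 (SE, n = 3 against 3; a 6.92-fold lower level, limma adjusted p = 7.52e-10) at 2 h and by 3.10 ± 0.29 (8.58-fold lower, adjusted p = 6.47e-11) at 6 h. At 12 h it was lower by 4.10-fold, a change of −2.04 ± 0.29 (adjusted p = 1.39e-06).

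Cldn8 then returned in steps. The arrays at 24 h (7.05, 6.26 and 6.17) and 48 h (6.96, 6.77 and 6.33) still lay below all controls. At 72 h they gave 7.46, 7.76 and 7.32, and at 168 h 7.45, 8.07 and 7.64. The 168 h arrays overlapped the controls, and those at 72 h lay just below the lowest of them. The changes were −1.61 (adjusted p = 0.00017) at 24 h and −1.42 (adjusted p = 0.00111) at 48 h, both called, where 5.48% and 5.95% of genes were called. At 72 h (−0.59, adjusted p = 0.254) and 168 h (−0.38, adjusted p = 0.564) Cldn8 was not called, and 1.88% and 0.383% of genes were. Of the 63 member steps between neighbouring FVB times from 2 h on, 2 were called, against 1.88% over all genes and steps. One was the rise of Cldn8 from 6 to 12 h (1.07 ± 0.29, adjusted p = 0.0321), a step at which 1.48% of genes were called. That call was lost without any 1 of the FVB 6 h replicates (adjusted p of 0.0603, 0.057 and 0.157 without replicates 1, 2 and 3) and without FVB 12 h replicate 2 (0.158) or 3 (0.0815). No other neighbouring Cldn8 levels differed by this rule.

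At 1008 h the FVB arrays gave Cldn8 values of 6.72, 7.18 and 7.08, again below all controls. The change was −1.11 ± 0.29 (limma adjusted p = 0.00522), at a time when 8.14% of all genes were called. Without FVB 0 h replicate 1 it was −0.97 (adjusted p = 0.0397) and without FVB 1008 h replicate 1 it was −0.97 (adjusted p = 0.0408), both under the fold threshold. Without the 2 controls that carry liver transcripts, the 6 calls of Cldn8 in FVB all held, with changes of −3.07, −3.38, −2.31, −1.88, −1.69 and −1.38 in order of time.

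In F1 skin Cldn8 fell as well. The controls were 7.63 and 7.36 in batch 2 and 8.21 and 7.63 in batch 3. At 4 h the arrays gave 5.75 in batch 2 and 4.93 in batch 3, at 6 h 5.98 and 5.30, and at 12 h 6.15 and 6.53. All 6 lay below all 4 controls. The changes were −2.37 ± 0.31 (n = 2 against 4, limma adjusted p = 1.45e-07) at 4 h, −2.07 ± 0.31 (adjusted p = 1.97e-06) at 6 h and −1.37 ± 0.31 (adjusted p = 0.00237) at 12 h, where 4.94% of genes were called. Within batch 2 they were −1.75 (adjusted p = 0.0163), −1.52 (adjusted p = 0.0531) and −1.34 (adjusted p = 0.15), and within batch 3 −2.99, −2.62 and −1.39. The call at 12 h was also lost without F1 12 h replicate 2 (−1.22, adjusted p = 0.105). The single F1 array at 2 h gave 6.64, and from 24 h on Cldn8 had no call in F1, where 1.89%, 1.39%, 1.99% and 0.802% of genes were called at 24, 48, 72 and 1008 h. At 1008 h the 6 F1 arrays ranged from 7.33 to 8.14 with a median of 7.51 and overlapped the controls (change −0.11 ± 0.23).

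In SPR skin no Cldn8 change was called. The 2 SPR controls were 6.16 and 6.48, the arrays at 4 h were 5.69 and 5.86, and the single array at 6 h was 5.10. The arrays at 4 h lay below both controls, at a time when 56.3% of all genes had no overlap. The Cldn8 change of −0.55 ± 0.35 had a limma adjusted p of 0.52 and a 95% interval from −1.26 to 0.16. The untreated SPR signal was itself below the untreated F1 signal by −1.34 ± 0.31 (n = 2 against 4, limma adjusted p = 0.0402). In this comparison 0.239% of all genes were called, 45 lower and 0 higher in SPR, and the cause of this direction was not tested. Both SPR controls belong to batch 2, as do 2 of the 4 F1 controls, and with batch 2 arrays only the Cldn8 call was lost (−1.18, adjusted p = 0.502). It was also lost without SPR 0 h replicate 1 (−1.18, adjusted p = 0.804) or 2 (−1.50, adjusted p = 0.34). The same held without F1 0 h replicate 1, 2 or 4 (adjusted p = 0.0853, 0.162 and 0.0586), F1 1008 h replicate 1 or 2 (0.0505 and 0.0521) or SPR 1008 h replicate 1 or 2 (0.0534 each).

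Cldn23, a member of the less studied non-classical claudins, was first called lower at 24 h in FVB, later than Cldn8. The controls were 6.84, 6.74 and 6.33. The arrays at 2 h were 6.17, 6.03 and 6.24, and those at 24 h were 4.97, 5.45 and 5.38. At 48 h they were 5.32, 5.43 and 5.41. All arrays from 2 to 72 h lay below all controls, with the lowest of these at 24 h. At these times 24.2% to 42.7% of all genes had no overlap with the controls. The Cldn23 changes at 2 h (−0.49, limma adjusted p = 0.261), 6 h (−0.74, adjusted p = 0.0465) and 12 h (−0.93, adjusted p = 0.0127) did not pass both thresholds. Cldn23 fell by 1.37 ± 0.28 (2.59-fold lower, limma adjusted p = 0.000786) at 24 h and by 1.25 ± 0.28 (2.38-fold lower, adjusted p = 0.00286) at 48 h. Without the 2 controls that carry liver transcripts the first was −1.57 (adjusted p = 0.0192) and the second was −1.45 and lost its call (adjusted p = 0.0536).

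By 168 h Cldn23 was back at the control level in FVB, with arrays of 6.42, 6.41 and 7.08 and a change of −0.00 ± 0.28. At 1008 h the arrays gave 5.04, 4.84 and 5.25. These 3 arrays lay below every other FVB group except 24 h, which they overlapped. The change from 0 h was −1.59 ± 0.28 (3.02-fold lower, limma adjusted p = 5.34e-05) and the step from 168 h was −1.59 ± 0.28 (adjusted p = 6.1e-05), where 6.07% of genes were called. At the same time, when 4.22% of all genes were called higher, hair follicle markers moved. Of 10 genes of the inner sheath and hair shaft 9 rose, with a median change of 6.07 against −0.04 for all genes. Their mean, each gene relative to its own mean over the arrays, was 4.67 to 4.94 on the 1008 h arrays, −0.73 to −0.65 at 0 h and −1.10 to −0.86 at 168 h. The mean of 8 sebaceous gland markers on the same scale was 0.40 to 0.81 at 0 h. At the times of the Cldn23 calls it was −0.64 to −0.19 (24 h), −0.82 to −0.39 (48 h) and −0.34 to −0.15 (1008 h). It was also below its 0 h range at times without a Cldn23 call. There it was −0.38 to 0.16 (12 h), −0.15 to 0.14 (72 h) and −0.13 to 0.28 (168 h). Of the 8 genes, 3 fell at 24 h, 4 fell at 48 h, and 2 fell and 1 rose at 1008 h. At these 3 times 5.48%, 5.95% and 8.14% of all genes were called. The part of the hair and sebaceous markers in the values of Cldn23 and Cldn8 was not tested.

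In F1 skin Cldn23 was called lower at 4 and 6 h. The controls were 6.39 and 6.03 in batch 2 and 6.84 on both arrays of batch 3. The arrays at 4 h were 5.19 in batch 2 and 5.55 in batch 3, and those at 6 h were 5.44 and 5.25. None of the 4 treated arrays reached the lowest control. The change was −1.15 ± 0.30 (n = 2 against 4, limma adjusted p = 0.00364) at 4 h and −1.18 ± 0.30 (adjusted p = 0.00317) at 6 h. Within batch 2 these were −1.02 (adjusted p = 0.263) and −0.77 (adjusted p = 0.62), and within batch 3 −1.29 and −1.59. The first was lost without F1 4 h replicate 1 (−1.05, adjusted p = 0.0648) and the second without F1 6 h replicate 2 (−0.98, adjusted p = 0.172). At 12 h the arrays gave 6.10 and 5.54 and at 24 h 5.80 and 5.62, without a call. Between F1 and FVB the Cldn23 changes over 6 shared times did not differ by the rule (limma F test, adjusted p = 0.179). They did with array quality weights (adjusted p = 0.01) and without either SPR 12 h array, the narrow-range one or the other. Without the 2 arrays of narrow range they did not. The sebaceous markers were −0.31 to 0.10 in F1 at 0 h, 0.30 to 0.57 at 4 h and −0.01 to 0.26 at 6 h, and their part in the Cldn23 values was not tested. At 1008 h the 6 F1 arrays ranged from 5.42 to 6.85 with a median of 5.86 and overlapped the controls (−0.58 ± 0.22, limma adjusted p = 0.259). The hair markers ranged from −1.28 to 2.40 there and already from −1.64 to 3.08 in F1 at 0 h. In SPR, 0 h gave 5.67 and 6.13 and 1008 h gave 6.23 and 6.42, without a call.

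**Figure D2:**
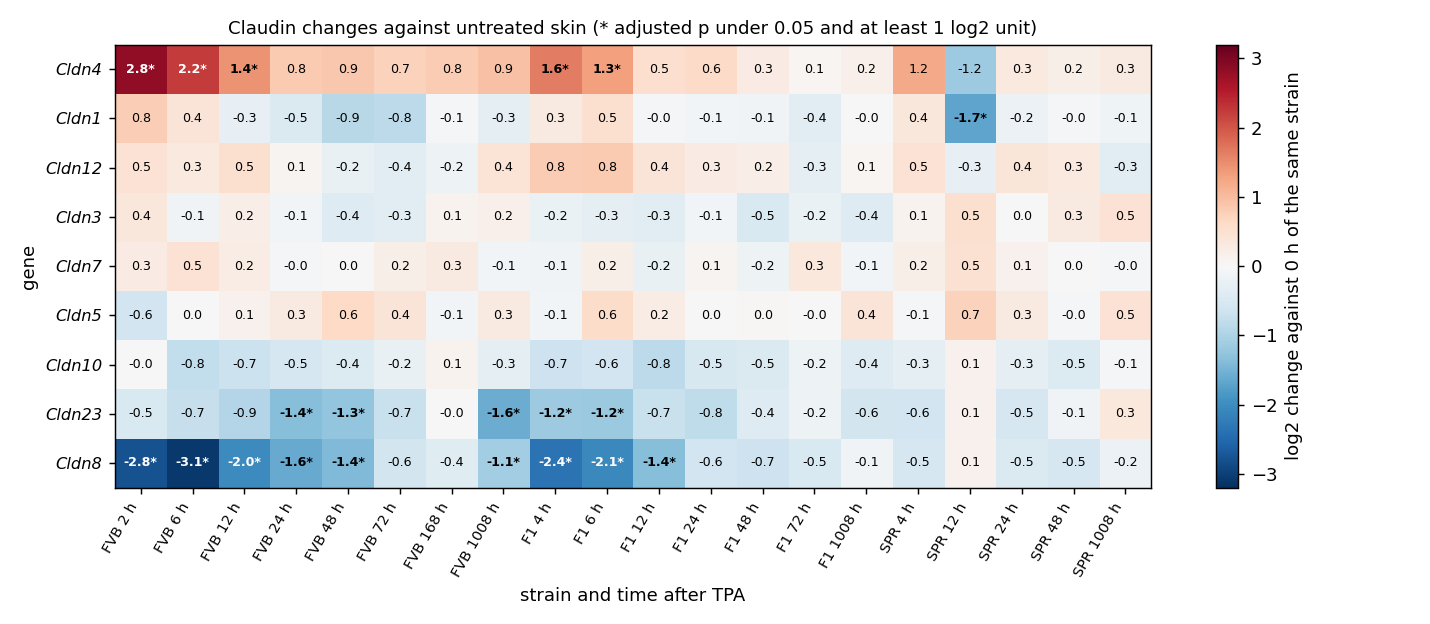
Log2 change from 0 h of the same strain for the 9 claudins (rows) at each time with at least 2 arrays (columns, FVB, F1 and SPR), with an asterisk where the change was called. The 12 calls in FVB and 7 in F1 lie in the rows of Cldn4, Cldn8 and Cldn23, and the 1 in SPR is Cldn1 at 12 h.

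Across F1 the members were called in 7 of 63 comparisons, 2 higher and 5 lower, against 4.56% over all genes and times, with 19 at an unadjusted p under 0.05. The 7 calls were those of Cldn4, Cldn8 and Cldn23 at 4 to 12 h. Across SPR there was 1 call in 45 comparisons, against 4.83%, with 3 at an unadjusted p under 0.05. The F tests over all times called 4 members in F1 (Cldn4, Cldn8, Cldn12 and Cldn23; 26.7% of all genes) and 3 in SPR (Cldn1, Cldn4 and Cldn12; 35.3% of all genes). The Cldn4 call over all times in F1 was lost with the replicate number as a block (adjusted p = 0.0903, against 0.0179) and without F1 4 h replicate 2 (0.131) or F1 6 h replicate 2 (0.065). Without the narrow-range arrays Cldn10 was called in F1 as well (0.0269). Without the 2 arrays of narrow range, Cldn4 was the member still called over all times in SPR (adjusted p = 0.0192).

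Cldn1, which forms the barrier of the epidermal tight junction and whose loss in mice causes lethal water loss through the skin, had no call in FVB. Its FVB controls were 12.12, 11.94 and 11.77. The arrays at 2 h were 12.64, 12.84 and 12.73, above all controls, and those at 48 h were 10.91, 11.38 and 10.89, below all controls. At 72 h they were 11.41, 11.29 and 10.60. At 2, 48 and 72 h, 40.1%, 29.8% and 24.2% of all genes had no overlap with the controls. Cldn1 had none at these 3 times either, with values above the controls early and below them later. The changes were 0.80 ± 0.36 (limma adjusted p = 0.144) at 2 h, −0.88 ± 0.36 (adjusted p = 0.0979) at 48 h and −0.84 ± 0.36 (adjusted p = 0.185) at 72 h. Without the 2 arrays of narrow range the changes were the same, the SE fell to 0.18 and the adjusted p to 0.000806, 0.000285 and 0.00113, with all 3 under the fold threshold. The call of Cldn1 in SPR at 12 h (−1.69 ± 0.45, adjusted p = 0.00731, where 18.4% of genes were called) rests on the narrow-range array, which gave 8.28 where the other gave 11.85 and the controls gave 11.79 and 11.73. Without that array the change was 0.09, and 1.04% of genes were called without both narrow-range arrays. Without SPR 0 h replicate 2 it was −1.72 (adjusted p = 0.061).

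**Figure D3:**
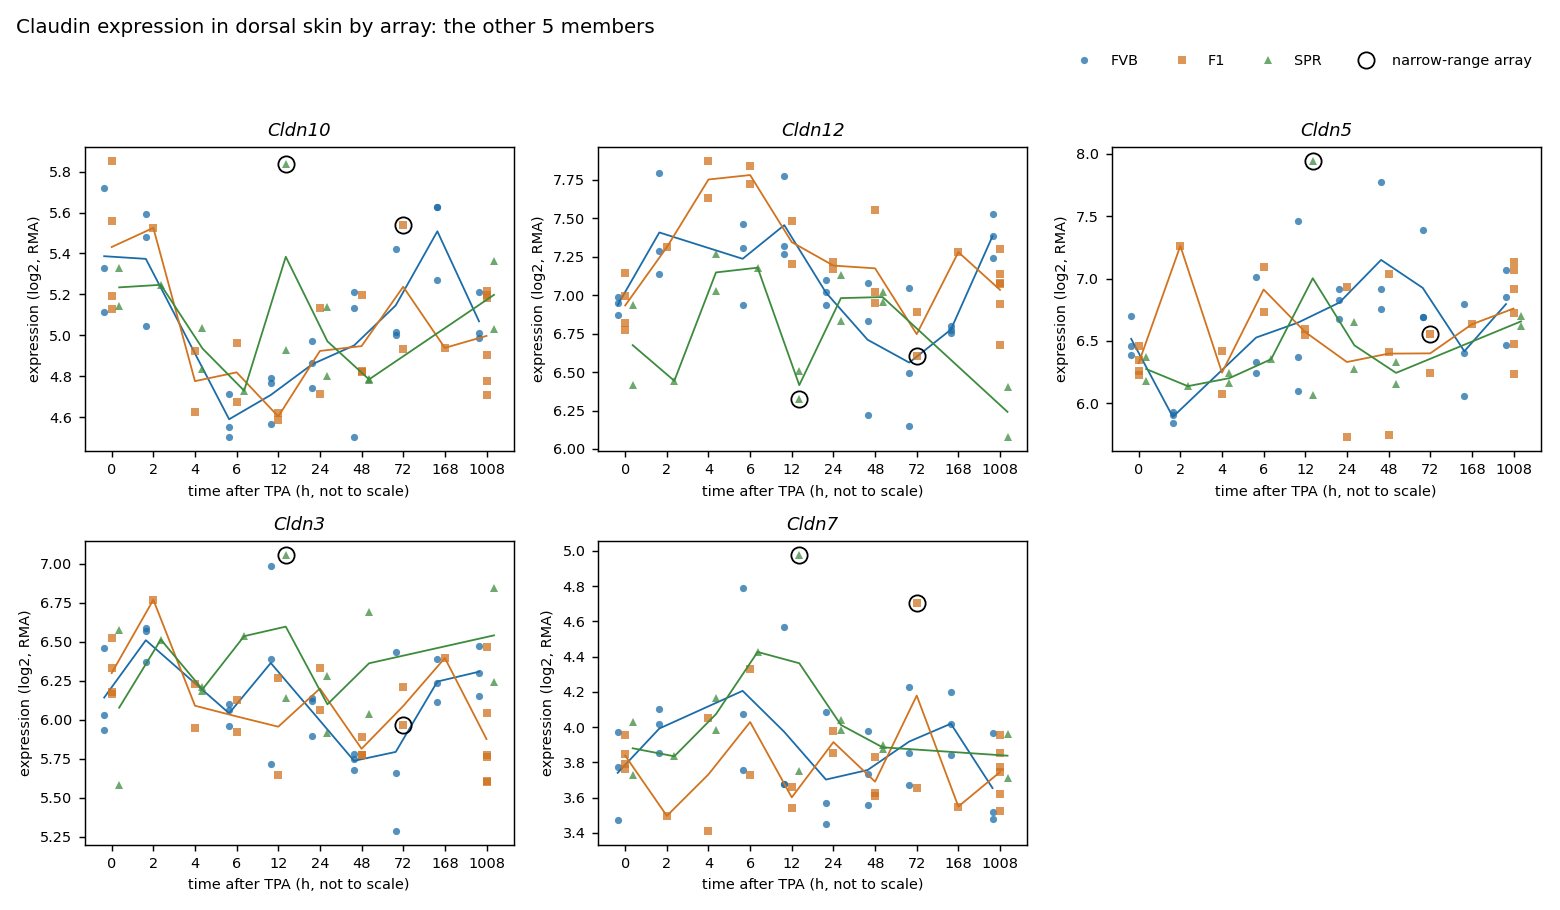
Log2 expression (RMA) of Cldn10, Cldn12, Cldn5, Cldn3 and Cldn7 on each array, by hours after TPA (axis not to scale), with FVB, F1 and SPR arrays as points, lines through group means and circles around the 2 arrays of narrow range. No change of these 5 genes was called at any time in any strain.

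The pore-forming Cldn10 and the non-classical Cldn12 moved by less than the fold threshold. Cldn10 has a low signal, with a mean over the 66 arrays of 5.05, above that of 35.9% of genes. Cldn10 was 5.72, 5.33 and 5.11 in the FVB controls and 4.71, 4.50 and 4.55 at 6 h, without overlap, as for 42.7% of all genes. Its change was −0.80 ± 0.22 (limma adjusted p = 0.00501) at 6 h and −0.68 ± 0.22 (adjusted p = 0.0192) at 12 h. Without the 2 controls that carry liver transcripts these were −1.13 and −1.01. They are then set against FVB 0 h replicate 1 alone, which has the highest Cldn10 value of the FVB controls (5.72). In F1 the Cldn10 change was −0.66 ± 0.23 (adjusted p = 0.0363) at 4 h and −0.83 ± 0.23 (adjusted p = 0.0156) at 12 h.

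Cldn12, which lacks the terminal motif that ties most claudins to the junction's scaffold, was higher in F1 early on. Its F1 controls were 7.14, 6.78, 6.82 and 6.99, the arrays at 4 h were 7.87 and 7.63, and those at 6 h were 7.84 and 7.72, all above the controls. At 4 and 6 h 50.5% and 51.5% of all genes had no overlap with the F1 controls. The Cldn12 changes were 0.82 ± 0.21 (limma adjusted p = 0.00411) and 0.85 ± 0.21 (adjusted p = 0.0032). In FVB its largest change was 0.52 ± 0.20 at 12 h (adjusted p = 0.0566).

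Cldn3, Cldn5 and Cldn7 had no call and no unadjusted p under 0.05 at any time in any strain. Cldn5, the claudin of blood vessel endothelium, ranged from 5.84 to 7.78 over the FVB arrays. Its highest FVB value, on 48 h replicate 1, came with the highest endothelial marker score of that group, 0.69, where the group's lowest was −0.21. Of 12 endothelial genes at most 1 was called at any FVB time, where 0.383% to 12.3% of all genes were called. The part of these genes in the Cldn5 values was not tested. Cldn3, whose promoter is printed above, ranged from 5.29 to 6.99 over the FVB arrays. Cldn7, known to sit along the sides of epithelial cells as well as at the junction, ranged from 3.45 to 4.79. Its mean over the 66 arrays was 3.88, above that of 16.3% of genes. Whether its probe set detects the gene at so low a signal was not tested.

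Of 16 other claudin genes listed, 14 were measured. The Cldn34 genes of the array were not on this list, and their changes are not given. None of the 14 was called in FVB in 112 comparisons. Of these comparisons, 9 had an unadjusted p under 0.05 and 2 an adjusted p under 0.05 with a change under the fold threshold. In F1 none was called in 98 comparisons (6 with an unadjusted p under 0.05), and in SPR 2 were called, both at 12 h, the time with the narrow-range array. Over all genes and times 6.4% of comparisons were called in FVB, 4.56% in F1 and 4.83% in SPR.

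Of 20 measured genes of the junction's inner plaque and of polarity, 3 fell in FVB at 6 h and none rose, with a list median of −0.20 against −0.01 for all genes. With 12.3% of all genes called at that time, a count of 3 in 20 is near the background and says nothing particular about the list. Tjp3, a scaffold protein that binds claudin tails, fell by 1.72 ± 0.25 (limma adjusted p = 1.09e-06) at 6 h. Cgn, cingulin, which links the junction to the cytoskeleton, fell by 1.55 ± 0.28 (adjusted p = 5.56e-05) at 6 h and was also called lower at 12, 24 and 1008 h. Its 24 h call was lost without the 2 controls that carry liver transcripts, without FVB 0 h replicate 1 and without FVB 24 h replicate 2 (largest adjusted p = 0.0796). Pard3, a polarity protein, fell by 1.13 at 6 h (not called without FVB 6 h replicate 3, adjusted p = 0.0556), and Pard6b, its partner, rose by 1.25 at 1008 h. In F1, Tjp3 changed by −1.24 at 4 h and −1.65 at 6 h and Cgn by −1.74 and −2.05, all called.

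Among 10 transmembrane junction genes other than claudins, 1 rose and 1 fell in FVB at 6 h and again at 12 h, when 12.3% and 10.4% of all genes were called. F11r, the junctional adhesion molecule A, rose by 1.36 ± 0.32 (limma adjusted p = 0.00141) at 6 h and by 1.15 at 12 h, and Jam2, an adhesion molecule of vessels, fell by 1.10 and by 1.08. The Jam2 change came under the fold threshold without FVB 6 h replicate 2 at 6 h, and without FVB 0 h replicate 1 or FVB 12 h replicate 2 or 3 at 12 h. Both F11r calls were lost without the 2 controls that carry liver transcripts (largest adjusted p = 0.168). Ocln, occludin, changed by −0.35 ± 0.26 at 6 h and was not called. The Pard6b call was lost without those controls as well (adjusted p = 0.0894).

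Of 13 transcriptional regulators known for epithelial junction genes, 3 rose and 1 fell in FVB at 6 h, when 12.3% of all genes were called. In F1, 2 rose and 2 fell at 4 h, and 2 rose at 6 h, when 10.5% and 10.4% were. Elf3, an epithelial ETS factor, rose by 1.61 ± 0.24 at 2 h, 2.37 ± 0.24 (limma adjusted p = 6.45e-10) at 6 h and 2.16 ± 0.24 at 48 h, and in F1 by 2.10 at 4 h and 2.27 at 6 h. Its FVB call at 168 h (1.02, adjusted p = 0.0309) was lost without the 2 controls that carry liver transcripts (0.74, adjusted p = 0.761), without FVB 0 h replicate 2 or 3, and without any 1 of the FVB 168 h replicates. Grhl3, a grainyhead-like factor of barrier formation, rose by 1.33 at 2 h and 1.76 ± 0.34 (adjusted p = 0.000112) at 6 h, and without the 2 controls that carry liver transcripts the 6 h call held and the 2 h call was lost (adjusted p = 0.224). Ovol1, a factor of epidermal differentiation, rose by 1.20 at 6 h, a call lost without those controls (adjusted p = 0.144). In F1 neither Grhl3 (0.44 at 4 h and 0.82 at 6 h) nor Ovol1 (0.27 and 0.75) was called at these times. Snai2, a repressor of epithelial genes, fell by 1.69 ± 0.29 (adjusted p = 4.19e-05) at 2 h. At 1008 h Zeb1 and Twist1, repressors of the same kind, fell by 1.39 and 1.20. The Zeb1 call was lost without those controls (adjusted p = 0.115) and the Twist1 call without FVB 0 h replicate 1 (adjusted p = 0.0825). In F1 Zeb1 was instead called higher at 4 h (1.24 ± 0.30, adjusted p = 0.00247) and 6 h (1.15 ± 0.30, adjusted p = 0.00509), where its FVB change at 6 h was 0.38 and not called.

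**Figure D4:**
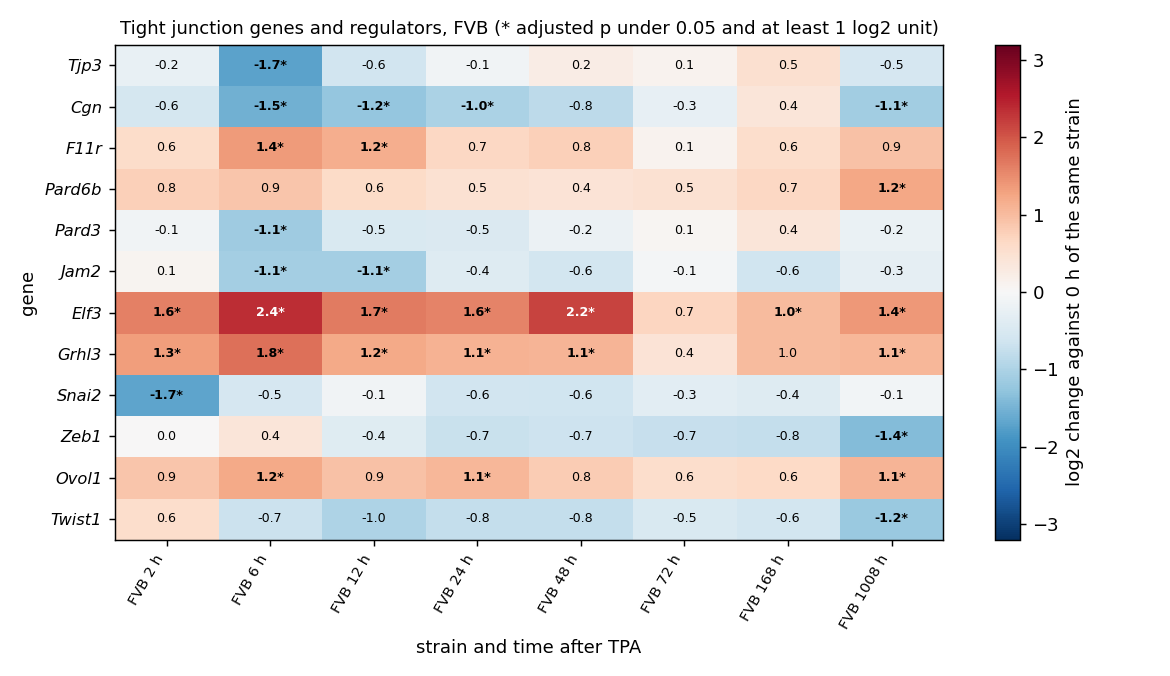
Log2 change from 0 h in FVB for 6 tight junction genes and 6 regulators (rows) over 8 times (columns), with an asterisk where the change was called. Tjp3 and Cgn are lowest at 6 h (−1.72 and −1.55), and Elf3 is called higher at 7 of the 8 times, of which 168 h is lost without the 2 controls that carry liver transcripts.

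Some markers of other cell types changed at the same times. In FVB 6.68%, 12.3% and 10.4% of all genes were called at 2, 6 and 12 h. All 6 neutrophil markers rose in FVB at 6 and 12 h, and 3 did at 2 h. Their mean, relative to each gene's mean over the arrays, was −1.80 to −1.70 at 0 h, −1.39 to 0.62 at 2 h, 0.79 to 1.56 at 6 h and 1.22 to 2.15 at 12 h. Of 6 measured suprabasal keratinocyte markers none was called at 2 h, 1 fell at 6 h and 4 fell at 12 h. The count of 1 in 6 at 6 h is near the share of all genes called. Of 6 basal keratinocyte markers none was called at 2 h. The part of these cell types in the changes of the members, at 2 h and later, was not tested.

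Over the 27 FVB arrays, which share their 9 times, Cldn4 and Cldn8 had a Pearson correlation of −0.82, and over the 25 F1 arrays −0.82. Cldn8 and Cldn23 correlated at 0.29 in FVB and 0.64 in F1, and Cldn4 and Cldn3 at 0.37 and 0.23. The genes whose FVB pattern was most like that of Cldn4 were Egr2 (r = 0.96) and Arc (0.95), both immediate early genes, and Olr1 (0.94), a scavenger receptor. In F1 they correlated with Cldn4 at 0.84, 0.84 and 0.82. For Cldn8 they were Lrig3 (0.95), Wls (0.94), which carries Wnt proteins to the cell surface, and Nuak1 (0.92), with 0.93, 0.78 and 0.93 in F1. For Cldn23 they were Cyp4f37 (0.90), Cd244a (0.90) and Ldah (0.88), which in F1 correlated at 0.54, 0.08 and 0.32. These describe arrays that share the time course and are given without a test.

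Differences between strains in the change from 0 h were tested directly. Between F1 and FVB, over 6 shared times, limma's F test called none of the 9 members (2 at an unadjusted p under 0.05; 1.88% of all genes were called), with 3 called with array quality weights and 1 after cyclic loess. At single times the F1 minus FVB difference for Cldn8 was 1.03 ± 0.42 at 6 h, with a 95% interval from 0.19 to 1.88 and an adjusted p of 1, where no gene of the array was called. For Cldn4 it was −0.91 ± 0.58 at 6 h, with an interval from −2.08 to 0.26. Neither interval is adjusted for the number of genes.

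Between SPR and FVB, over 12, 24, 48 and 1008 h, 5 members were called by the F test, against 20.5% of all genes. Without the 2 arrays of narrow range Cldn12 and Cldn23 remained called. Neither was called by the F test with FVB beside the batch 2 arrays of the other strains. The F test call of Cldn23 was also lost without SPR 0 h replicate 1 or either SPR 1008 h replicate. For Cldn23 at 1008 h the SPR change minus the FVB change was 1.93 ± 0.45 (limma adjusted p = 0.0148; 0.00203 without the narrow-range arrays), where 1.4% of genes were called. In FVB the 1008 h arrays were below all controls and in SPR above both. The difference was not called with FVB beside the batch 2 arrays of the other strains (1.93, adjusted p = 0.103), without the 2 controls that carry liver transcripts (2.13, adjusted p = 0.0536), or without SPR 0 h replicate 1 (1.70, adjusted p = 0.118), SPR 1008 h replicate 1 (1.94, adjusted p = 0.0645) or SPR 1008 h replicate 2 (1.93, adjusted p = 0.0876). The hair markers were 2.30 to 2.37 in SPR at 1008 h and −1.08 to −0.76 at 0 h, so they were higher there too, and their part was not tested.

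At 12 h the SPR differences rest on the narrow-range array. The SPR minus FVB difference was −2.62 ± 0.63 (limma adjusted p = 0.00511) for Cldn4 and 2.18 ± 0.46 (adjusted p = 0.00276) for Cldn8, where 17.2% of genes were called. Without the narrow-range arrays it was −0.78 (adjusted p = 0.572) and 1.42 (adjusted p = 0.24). The Cldn4 difference was also lost without the 2 controls that carry liver transcripts (−2.31, adjusted p = 0.0515). The SPR minus F1 difference for Cldn8 at 12 h, 1.51 ± 0.47 (adjusted p = 0.0457, where 5.9% of genes were called), was 0.75 (adjusted p = 1) without them and was lost under 30 of 79 settings, with values from 0.75 to 2.27. Between SPR and F1 over 5 times the F test called no member (1 at an unadjusted p under 0.05; 0.0106% of all genes were called), with 1 called with array quality weights. For Cldn8 at 4 h, where no narrow-range array enters either group, the SPR change exceeded the F1 change by 1.82 ± 0.47, with a 95% interval from 0.88 to 2.76 and an adjusted p of 0.466 (0.00531% of genes were called).

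**Figure D5:**
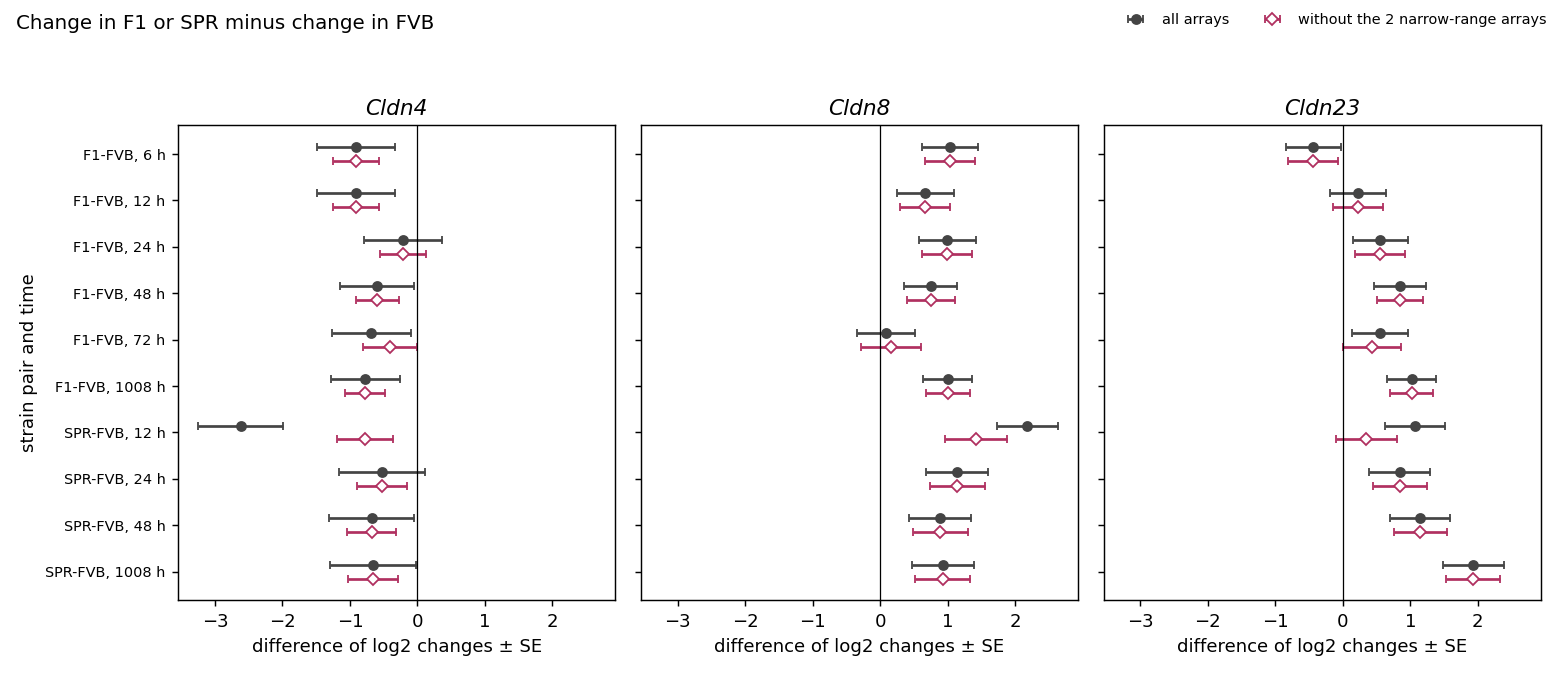
Change from 0 h in F1 or SPR minus the change in FVB (log2, mean ± SE) for Cldn4, Cldn8 and Cldn23 at each shared time, with and without the 2 arrays of narrow range. The SPR points at 12 h move most, from −2.62 to −0.78 for Cldn4, while the SPR point of Cldn23 at 1008 h stays at 1.93.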

How the data were processed

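Expression was measured in 69 dorsal skin samples, and the authors deposited log2 values for 35556 probe sets, made with RMA per the submitters' processing notes (version not given in the sources used here). What a batch is was likewise not given in the sources used here. Of the probe sets, 21218 had 1 gene symbol, 1881 had several and 12457 had none in the platform annotation. The single-symbol probe set with the highest mean was kept for each of 18820 genes.

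The 66 arrays with a labelled strain and time formed 27 groups, and 3 arrays without one were left out of comparisons. One limma model (R 4.3.3, limma 3.58.1) with a batch 3 term, 38 residual degrees of freedom and two-sided tests was fitted over all genes, with Benjamini-Hochberg adjustment over all genes (calls at adjusted p under 0.05 and a log2 change of at least 1, and F tests with no fold threshold). The scripts were tested on simulated data. Promoter windows are RefSeq's (GRCm38.p6). The number of arrays per group limits the precision.

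Members and gene lists were chosen with earlier results of these data known. All 9 members are named. Of other genes the text names up to 6 tight junction genes and 6 regulators with the largest changes among those called in FVB, and the 3 genes most correlated with each member called there. Occludin was added after its values were seen. In all, 81 alternative settings were run (normalization, filter, probe sets, weights, batch, block, each array left out).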

Additional observations from a re-analysis of the deposited data

Results flagged for a closer look

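For the 9 members in the 2 groups of 4 or more arrays (F1 at 0 h and at 1008 h), 18 sets of values were checked. An array lay far from the rest in 2 of them, where chance gives about 1 in 20. Cldn1 on F1 0 h replicate 4 was 11.401, with the next array at 11.819. Cldn8 on F1 1008 h replicate 3 was 8.143, with the next at 7.614.

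The change from 0 h differed between strains in 4 tests. Cldn4 had an SPR minus FVB difference of −2.619 at 12 h, and Cldn8 had 2.179 there and an SPR minus F1 difference of 1.511, all 3 with the narrow-range SPR array in the group. Cldn23 had an SPR minus FVB difference of 1.932 at 1008 h.

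The 3 TPA arrays labelled with an unknown strain held values above the highest control of any strain at 0 h, and others below the lowest. Cldn4 was 10.8 on the one labelled 2 h, 11.326 on the one labelled 6 h and 11.214 on the one with no known time, against a highest control of 10.031. At 2 and 6 h Cldn4 lay above the controls in FVB, F1 and SPR as well. Cldn1 was 12.389 on 1 of them (highest control 12.119), Cldn5 was 7.22 and 6.968 on 2 (6.696), Cldn7 was 4.45 on 1 (4.03) and Cldn12 was 7.174 on 1 (7.144). The flagging rule looked only above the controls. Cldn8 was 5.403, 5.002 and 5.757 on the 3 arrays, below its lowest control of 6.163. Below their lowest controls were also Cldn23 at 5.106 and 5.304 on 2 (5.672) and Cldn10 at 4.728 and 4.493 on 2 (5.112).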

How the results depend on the processing

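Of the 12 FVB calls, 9 held under every setting run, and of the 7 F1 calls, 1 did (Cldn8 at 4 h). The FVB count of 12 lay between 11 and 13 with each array left out and between 12 and 16 under the other settings, and the FVB F test count of 6 lay between 6 and 7 and between 5 and 8. The F1 count of 7 was 5 to 7 with each array left out, 11 with no fold threshold and 1 with batch 2 arrays only. The SPR count of 1 was 0 to 5 with each array left out, 2 with dim probe sets left out and 0 with each strain fitted alone. The count of 2 between neighbouring FVB times was 1 to 2 with each array left out, 1 with all probe sets in the fit and 4 with no fold threshold.

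The F test count for F1, 4, was 3 to 5 with each array left out and 1 to 6 under the other settings, with 1 for batch 2 only and 6 after cyclic loess. That for SPR, 3, was 1 to 7 with each array left out, 0 with each strain fitted alone and 1 without the 2 narrow-range arrays. For F1 against FVB, 0 became 0 to 1 with each array left out, 3 with array quality weights and 1 after cyclic loess. For SPR against FVB, 5 became 2 to 7 with each array left out, 3 with array quality weights, 1 with FVB beside batch 2 only and 2 without the narrow-range arrays. For SPR against F1, 0 became 0 to 5 with each array left out and 1 with array quality weights. The Cldn1 change in SPR at 12 h, −1.69, was −3.474 without the other SPR 12 h array and reversed to 0.182 after cyclic loess and to 0.089 without the narrow-range array or arrays. Where single arrays or batches set the number of samples, fewer samples enter; for the other moves the cause was not tested.

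Same-numbered FVB replicates did not deviate together over 108 pairs (median r = −0.009, from −0.611 to 0.456, and −0.009 for different numbers). With the replicate number as a block, the Cldn4 change in F1 at 6 h was 1.29 (adjusted p = 0.0653), and the count of F test calls in F1 was 3. The Cldn8 differences between SPR and F1 (at 0 h, and in the change at 12 h) and the Cldn1 F test between SPR and FVB (adjusted p = 0.0531) also lost their calls there.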
